A study of Mus musculus with 44 samples.

Results

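The genes described here are 10 members of the insulin-like growth factor (IGF) axis, chosen by gene symbol: the ligands Igf1 and Igf2, the receptors Igf1r and Igf2r, the binding proteins Igfbp2, Igfbp4 and Igfbp5, the protease Pappa, and the intracellular adaptors Irs2 and Grb14. All 10 were listed in both deposited gene tables, among 22674 rows of the maturation table and 18274 rows of the ovulation table, and all 10 passed the filter on low values in both. The libraries were made from poly-A RNA of ovarian follicles of wild-type CD-1 mice, an outbred strain, and the study asked how perfluorononanoic acid (PFNA, a long-chain perfluorinated surfactant) affected follicles in 2 windows. The maturation window was the gonadotropin-dependent growth of the follicle, with 11 control libraries labelled DMSO, the solvent, and 10 libraries labelled PFNA. In the ovulation window all follicles received human chorionic gonadotropin (hCG), which stands in for the ovulatory surge of luteinizing hormone, with 12 control libraries labelled hCG and 11 labelled hCG+PFNA. The labels gave no dose, exposure time or age, and did not say whether libraries of a group came from separate animals or cultures, so p-values measure only the spread between these libraries, which may be technical.

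IGF1 and IGF2 bind the receptor tyrosine kinase IGF1R, which signals through insulin receptor substrates such as IRS2 to PI3-kinase and AKT, while IGF2R takes IGF2 up for breakdown without signalling as a kinase. Binding proteins hold the ligands in the extracellular space, and the metalloprotease PAPPA cleaves IGFBP4 and IGFBP5 and so frees IGF. GRB14 binds activated insulin and IGF1 receptors and inhibits their kinase activity. In the mouse ovary granulosa cells of growing follicles make IGF1, and IGF1R signalling augments the response of these cells to follicle-stimulating hormone.

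Granulosa markers were detected in the libraries of both windows, with a summed level of 9 genes of at least 16890 TPM (transcript abundance per length, scaled to a fixed total per library) in every maturation library and 15308 CPM (counts scaled to a fixed library total with TMM normalization) in every ovulation library. Libraries of the maturation window did not all follow their labels as a block. On the first principal component, with 28.6% of the variance, PFNA replicates 1 and 2 lay at -18.1 and -10.6, inside the range of the controls (-37.7 to -7.60), while scores of the other 8 ran from 33.4 to 48.8. The summed level of 10 oocyte markers was 116 to 186 TPM in controls. It was 123, 87.9 and 347 TPM in PFNA replicates 1, 2 and 10 and at most 7.37 TPM in PFNA replicates 3 to 9, and 9 of 9 oocyte markers tested were lower with PFNA. In the ovulation window 5 of 9 were higher, with sums of 63.3 to 267 CPM in controls and of 131 to 406 CPM with PFNA except in PFNA replicate 5, at 8.86 CPM. Of all genes tested, 16.1% were lower with PFNA in maturation by limma and 38.0% were higher after hCG by edgeR (adjusted p under 0.05). In such bulk samples fewer cells of a type and less RNA per cell cannot be told apart.

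The adaptors Grb14 and Irs2 were higher with PFNA in both windows, and Pappa and Igf1r were lower after hCG. The PFNA effect differed in size or direction between the windows for all members but Igf1 and Igfbp4. Of all genes tested in both windows, 67.7% differed. In the maturation window Grb14, Irs2, Igfbp4 and Igfbp2 rose and Igf2r fell, so 5 of the 10 members passed an adjusted p of 0.05 (limma, Benjamini-Hochberg), against 29.4% of all genes tested. The 4 that rose stand beside 13.3% of all genes called higher, and the 1 that fell beside 16.1% called lower. In the ovulation window Grb14, Irs2, Igfbp4 and Igf2 rose and Pappa, Igf1r and Igfbp5 fell, so 7 of 10 members passed (edgeR's quasi-likelihood test, Benjamini-Hochberg), which is near the background of 73.2% of all genes (38.0% called higher and 35.2% lower, beside 4 and 3 members). The median log2 fold change of the members was 0.20 in the maturation window (0.02 over all genes tested) and 0.04 in the ovulation window (0.04 over all genes tested). Members called in both windows were Grb14, Irs2 and Igfbp4, all higher in both, and Igf1 alone was called in neither. PFNA and control libraries did not overlap for 1 member in the maturation window, against 1.28% of all genes. This was Grb14, with all PFNA libraries above the controls, as for 0.489% of all genes (0.788% had them all below). After hCG the groups parted for 3 members, against 26.0% of all genes: Grb14 above the controls (11.9%) and Pappa and Igf1r below them (14.1%). Without maturation PFNA replicates 1 and 2 together, Grb14, Irs2 and Igfbp4 had log2 fold changes of 1.43, 1.69 and 1.06 in the maturation window (limma adjusted p 2.3e-08, 9.2e-08 and 0.024). In that fit Igfbp2 and Igf2r did not pass (0.38 and -0.34, limma adjusted p 0.090 and 0.092), and Igf1 did (-0.34, limma adjusted p = 0.024).

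Grb14, the receptor-binding inhibitor, was the member with the largest rise after hCG. It lies on the minus strand of chromosome 2 (GRCm38, 64912476 to 65024987). In the maturation window its level was 15.6, 20.6 and 28.7 TPM (lowest, median and highest control) and 35.9, 51.7 and 74.5 TPM with PFNA. The groups did not overlap, and PFNA replicates 1 and 2, whose first-component scores fell inside the control range, were above every control for this gene at 43.4 and 35.9 TPM. The mean rose from 20.9 ± 3.86 (SD, n = 11) to 54.8 ± 14.1 TPM (SD, n = 10), with a log2 change of 1.33 on the log2(TPM + 1) scale (SE 0.13, adjusted p = 8.9e-07 by limma). After hCG the controls lay at 29.0, 38.7 and 64.3 CPM and PFNA libraries at 380, 585 and 727 CPM. Every PFNA library was thus several times above the highest control. This was a log2 fold change of 3.70 (SE 0.15, adjusted p = 3.1e-16 by edgeR), a 13.0-fold difference of the means, and it stayed between 3.65 and 3.77 when any 1 library was left out. The PFNA effect was 2.38 larger after hCG than in maturation on the log2 scale (SE 0.19, limma within each table, adjusted p = 8.5e-15).

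Irs2, which docks PI3-kinase to the activated receptor, is on the minus strand of chromosome 8 (10984681 to 11008458), where it overlaps 9530052E02Rik on the other strand. Use of strand in counting was not stated, so reads of this pair cannot be told apart. During maturation Irs2 measured 6.26, 9.64 and 13.8 TPM in controls and 11.2, 28.6 and 45.3 TPM with PFNA. Of the PFNA libraries 9 of 10 exceeded every control, and the exception was PFNA replicate 2 at 11.2 TPM. The mean rose from 10.1 ± 2.73 (SD, n = 11) to 30.9 ± 11.2 TPM (SD, n = 10), with a log2 change of 1.47 (SE 0.20, adjusted p = 2.4e-05 by limma). After hCG its levels were 44.0, 66.0 and 116 CPM in controls and 73.3, 113 and 153 CPM with PFNA. Here the groups overlapped, with 5 of 11 PFNA libraries above every control and 11 of 11 above the control median. PFNA raised Irs2 here by 0.54 on the log2 scale (SE 0.14, adjusted p = 0.0017 by edgeR), so that, opposite to Grb14, the effect was smaller after hCG, by -0.91 on the log2 scale (SE 0.25, limma within each table, adjusted p = 0.0014).

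Since Grb14, Irs2 and Igfbp4 rose in both windows, the 250 bases before their RefSeq starts (GRCm38.p6) are shown 5′ to 3′ on the strand of the gene, with matches to the motifs searched in capitals. They lie at chr2:65022767-65023016 (minus strand), chr8:11008930-11009179 (minus strand) and chr11:99040994-99041243 (plus strand). The maturation table has Grb14 start farther upstream, at 65024987, so its printed stretch lies inside that gene model.
Grb14: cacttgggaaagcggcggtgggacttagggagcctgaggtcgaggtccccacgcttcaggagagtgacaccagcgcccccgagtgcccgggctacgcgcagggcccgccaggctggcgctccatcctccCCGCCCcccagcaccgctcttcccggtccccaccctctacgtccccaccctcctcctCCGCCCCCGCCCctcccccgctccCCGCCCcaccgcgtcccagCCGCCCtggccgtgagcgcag
Irs2: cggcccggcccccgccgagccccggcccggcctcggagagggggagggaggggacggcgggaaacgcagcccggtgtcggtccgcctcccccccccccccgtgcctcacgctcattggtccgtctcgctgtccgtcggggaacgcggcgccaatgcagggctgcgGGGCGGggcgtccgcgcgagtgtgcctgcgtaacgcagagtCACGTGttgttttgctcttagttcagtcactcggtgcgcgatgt
Igfbp4: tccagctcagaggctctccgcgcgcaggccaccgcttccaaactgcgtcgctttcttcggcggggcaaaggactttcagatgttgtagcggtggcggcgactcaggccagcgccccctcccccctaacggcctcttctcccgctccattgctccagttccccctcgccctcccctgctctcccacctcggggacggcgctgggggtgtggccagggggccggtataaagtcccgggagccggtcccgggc
The motifs were searched on both strands: the forkhead (FOXO) site GTAAACA, the cyclic AMP response element TGACGTCA, its half-site TGACG which the full element contains, the E-box CACGTG, the GC box GGGCGG and the PPAR direct repeat, 2 copies of AGGTCA with 1 base between them. Grb14 had 5 GC boxes, all read from the opposite strand (CCGCCC as printed) and 1 pair of them side by side, Irs2 had 1 E-box and 1 GC box, and Igfbp4 had no match. The GC box was found in 32.7% and the E-box in 6.02% of 32851 mouse promoters of this length, the FOXO site in 3.17%, the full element in 1.55%, its half-site in 17.8% and the direct repeat in 0.0335%. None of these letters was shared by all 3 stretches. Of the 10 members 9 had a RefSeq promoter entry, and Pappa is named only.

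**Figure D1:**
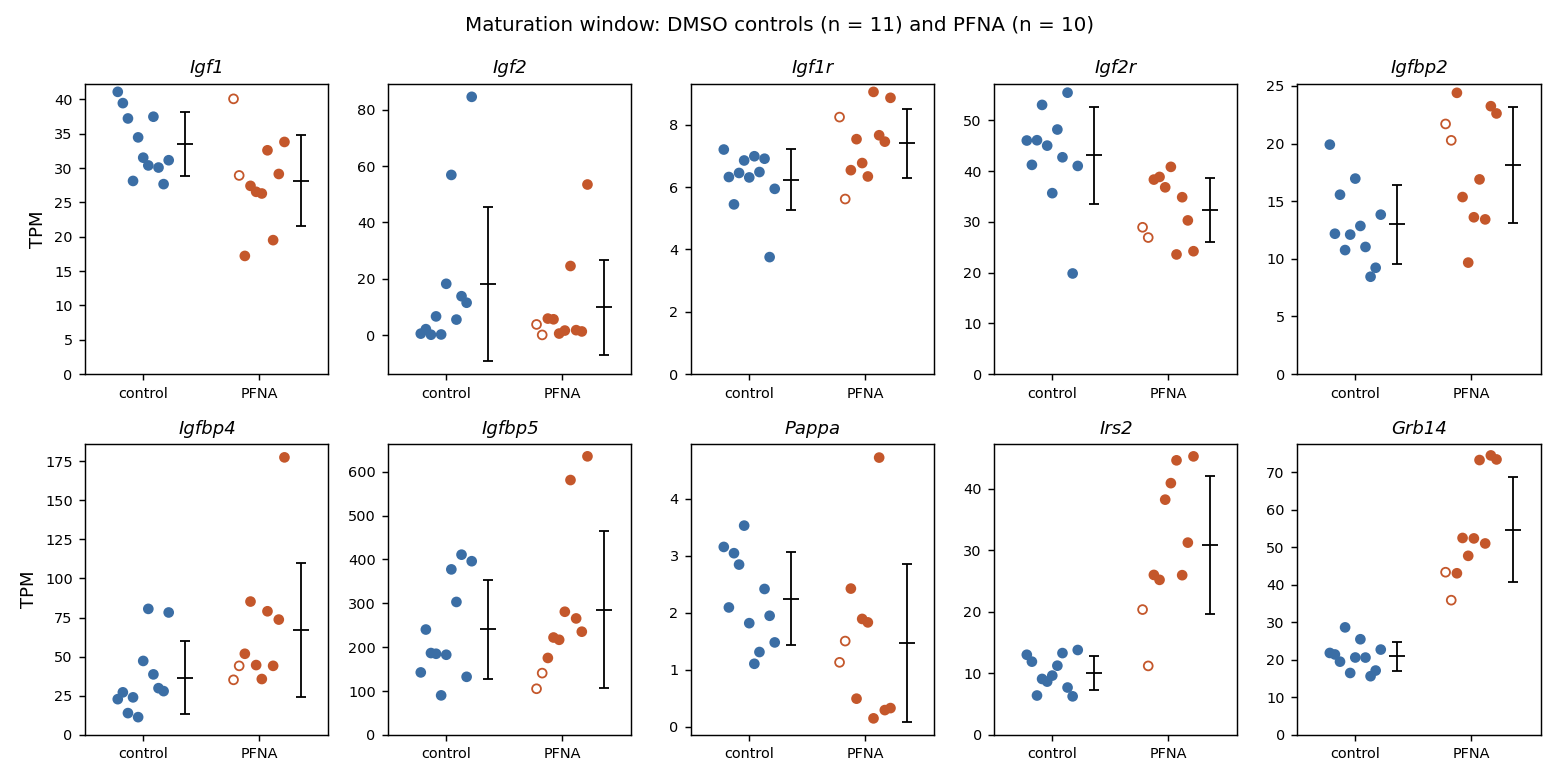
Level of each member (TPM) in the 11 control and 10 PFNA libraries of the maturation window, with the mean and SD as a bar beside the points and PFNA replicates 1 and 2 as open circles. Grb14 is the member whose PFNA libraries (35.9 to 74.5 TPM) all lie above the highest control (28.7 TPM), and PFNA replicate 10 has the highest PFNA level of Igf2, Igfbp4 and Igfbp5.

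The ligands differed from each other. Igf1, on the plus strand of chromosome 10 (87858265 to 87937042, overlapping Igf1os on the other strand), measured 27.7, 31.5 and 41.1 TPM in maturation controls and 17.2, 28.2 and 40.1 TPM with PFNA. The groups overlapped, although 5 of 10 PFNA libraries lay below every control. Its log2 fold change was -0.27 (SE 0.12, adjusted p = 0.089 by limma), and it passed without PFNA replicate 1 (-0.33, limma adjusted p = 0.026) and with median-ratio scaling of TPM (-0.30, limma adjusted p = 0.047). After hCG Igf1 had levels of 166 and 420 CPM in the lowest and the median control and 193, 348 and 517 CPM with PFNA, and the highest library of the window was a control. The log2 fold change was -0.01 (SE 0.19, adjusted p = 0.95 by edgeR), and its sign changed in 10 of 23 fits that each left out 1 library. These fits were the ones without control replicate 1, 6, 7, 9, 10 or 11 or PFNA replicate 2, 6, 8 or 10, and their values reached 0.06.

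Igf2, on the minus strand of chromosome 7 (142650766 to 142666816, overlapping Gm49394, Mir483 and Igf2os), was the most variable member. Maturation controls spanned 0.167, 6.66 and 84.6 TPM and PFNA libraries 0.0934, 2.79 and 53.5 TPM, with no separation of the groups (log2 fold change -0.65, SE 0.81, limma adjusted p = 0.58). After hCG Igf2 lay at 0.295, 3.75 and 26.1 CPM in controls and 1.39, 16.5 and 142 CPM with PFNA. The groups overlapped here too, with 4 of 11 PFNA libraries above every control and 3 of 11 below the control median. The mean rose from 5.70 ± 7.32 (SD, n = 12) to 40.3 ± 49.2 CPM (SD, n = 11), with a log2 change of 2.82 (SE 0.77, adjusted p = 0.0021 by edgeR). The smallest count behind an ovulation value of Igf2 was 3. The effect was 2.69 higher after hCG than in maturation (SE 1.07, limma within each table, adjusted p = 0.025), which did not pass without maturation PFNA replicates 1 and 2 together (2.41, limma adjusted p = 0.053).

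Of the receptors, Igf1r, the signalling receptor, fell after hCG. The gene lies on the plus strand of chromosome 7 (67952827 to 68233668). After hCG it measured 612, 756 and 921 CPM in controls and 335, 443 and 499 CPM with PFNA. Every PFNA library was below every control. The mean fell from 740 ± 93.7 (SD, n = 12) to 435 ± 51.4 CPM (SD, n = 11), with a log2 change of -0.77 (SE 0.08, adjusted p = 2.2e-09 by edgeR). During maturation it measured 3.75, 6.45 and 7.20 TPM in controls and 5.62, 7.50 and 9.05 TPM with PFNA. Here 6 of 10 PFNA libraries were above every control, and the lowest control was replicate 11 at 3.75 TPM. The log2 fold change of 0.22 did not pass (SE 0.09, adjusted p = 0.080 by limma). It passed without PFNA replicate 2 (0.26, limma adjusted p = 0.035) and with median-ratio scaling (0.19, limma adjusted p = 0.045). Over the 21 fits that each left out 1 library it ran from 0.16 to 0.26 (limma adjusted p 0.035 to 0.14). The effects differed between the windows by -0.98 (SE 0.12, limma within each table, adjusted p = 1.9e-09).

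Igf2r, the clearance receptor for IGF2, fell in the maturation window instead. It lies on the minus strand of chromosome 17 (12682406 to 12769664) and overlaps the antisense gene Airn. Its levels were 19.8, 45.0 and 55.5 TPM in maturation controls and 23.6, 32.6 and 40.8 TPM with PFNA. No PFNA library reached the control median, but control replicate 11, at 19.8 TPM, was the lowest library of all. Its log2 fold change was -0.39 (SE 0.14, adjusted p = 0.046 by limma), and the call was lost in 15 of 21 fits that each left out 1 library. These were the fits without control replicate 1, 2, 3, 5, 6, 8, 9, 10 or 12 or PFNA replicate 1, 2, 7, 8, 9 or 10, with log2 fold changes of -0.34 to -0.40 and limma adjusted p of up to 0.086. Over all 21 fits the log2 fold change reached -0.49, and the lowest limma adjusted p was 0.0014. After hCG its levels were 354, 405 and 505 CPM in controls and 257, 435 and 695 CPM with PFNA, on both sides of the controls (log2 fold change 0.10, SE 0.11, edgeR adjusted p = 0.44). The effect was 0.45 higher after hCG (SE 0.18, limma within each table, adjusted p = 0.029). That difference did not pass without maturation PFNA replicate 7 or 10 or ovulation PFNA replicate 6 (0.40, 0.41 and 0.38, limma adjusted p up to 0.055), or without maturation PFNA replicates 1 and 2 together (0.40, limma adjusted p = 0.064).

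Igfbp4, a binding protein that PAPPA cleaves, rose in both windows. It lies on the plus strand of chromosome 11 (99041244 to 99054392). Maturation controls measured 11.3, 28.0 and 80.5 TPM and PFNA libraries 35.2, 48.2 and 177 TPM. All 10 PFNA libraries were above the control median, but 2 controls, replicates 8 and 12, reached 80.5 and 78.2 TPM, and 2 PFNA libraries exceeded both. The log2 fold change was 0.91 (SE 0.33, adjusted p = 0.041 by limma), and the call was lost in 12 of 21 fits that each left out 1 library. These were the fits without control replicate 1, 2, 3, 5, 6, 10 or 11 or PFNA replicate 3, 4, 7, 9 or 10, with log2 fold changes of 0.74 to 0.93 and limma adjusted p of up to 0.079. After hCG Igfbp4 had levels of 12.2, 23.4 and 48.3 CPM in controls and 17.9, 41.9 and 71.6 CPM with PFNA, and 4 of 11 PFNA libraries were above every control. Its log2 fold change was 0.67 (SE 0.26, adjusted p = 0.023 by edgeR), which did not pass without PFNA replicate 5 (0.56, edgeR adjusted p = 0.057). The difference between the windows was -0.31 (SE 0.42, limma within each table, adjusted p = 0.52).

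Igfbp2 and Igfbp5, neighbouring genes on chromosome 1 (72824503 to 72852474 on the plus strand and 72857932 to 72874884 on the minus strand), responded differently by window. In the maturation window Igfbp2 measured 8.45, 12.2 and 19.9 TPM in controls and 9.68, 18.6 and 24.4 TPM with PFNA. The groups overlapped, with 5 of 10 PFNA libraries above every control. The log2 fold change was 0.44 (SE 0.16, adjusted p = 0.041 by limma). The call was lost in 12 of 21 fits, those without control replicate 2, 5, 6, 9, 10 or 11 or PFNA replicate 1, 2, 3, 7, 9 or 10 (log2 fold changes 0.39 to 0.44, limma adjusted p up to 0.077). After hCG Igfbp2 measured 39.0, 43.5 and 62.1 CPM in controls and 15.2, 33.4 and 83.0 CPM with PFNA. While 8 of 11 PFNA libraries lay below every control, PFNA replicate 5 was the highest library of the window. The log2 fold change of -0.30 did not pass (SE 0.20, adjusted p = 0.19 by edgeR), whereas without PFNA replicate 5 it was -0.49 (edgeR adjusted p = 0.0093). Of 6 alternatives run on all libraries, it did not pass in 5 and passed in the other, with log2 fold changes of -0.43 to -0.20. The effects differed between the windows by -0.87 (SE 0.25, limma within each table, adjusted p = 0.0021).

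Igfbp5, another PAPPA substrate, measured 90.0, 187 and 411 TPM in maturation controls and 105, 229 and 635 TPM with PFNA. The groups overlapped and the log2 fold change was 0.19 (SE 0.31, adjusted p = 0.69 by limma). After hCG it measured 131, 313 and 653 CPM in controls and 121, 201 and 263 CPM with PFNA. All 11 PFNA libraries were below the control median, and the groups overlapped, since the controls reached down to 131 CPM and the PFNA libraries up to 263 CPM. The mean fell from 351 ± 152 (SD, n = 12) to 199 ± 42.5 CPM (SD, n = 11), with a log2 change of -0.82 (SE 0.20, adjusted p = 7.6e-04 by edgeR). The effects differed by -0.91 between windows (SE 0.37, limma within each table, adjusted p = 0.030), which did not pass without maturation control replicate 6 or maturation PFNA replicate 7 or 10 (-0.79, -0.77 and -0.76, limma adjusted p up to 0.060).

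Pappa, the protease that opens the binding-protein complex, showed the largest fall of the members after hCG. It lies on the plus strand of chromosome 4 (65124174 to 65357509). After hCG it measured 177, 216 and 352 CPM in controls and 14.3, 40.4 and 103 CPM with PFNA. The groups did not overlap, and the PFNA libraries nearest the controls were replicates 5 and 6 at 93.6 and 103 CPM. The mean fell from 235 ± 57.9 (SD, n = 12) to 48.6 ± 27.0 CPM (SD, n = 11), with a log2 change of -2.28 (SE 0.24, adjusted p = 8.5e-09 by edgeR), or a control mean 4.84-fold that with PFNA. In the maturation window Pappa had the lowest median of the members, with 1.10, 2.09 and 3.53 TPM in controls and 0.143, 1.31 and 4.73 TPM with PFNA. PFNA libraries lay on both sides of the controls, with 4 of 10 below every control and replicate 8 above them all. For Pappa this gave -0.53 on the log2 scale (SE 0.24, adjusted p = 0.11 by limma), and without PFNA replicate 8 it was -0.68 (limma adjusted p = 0.021). The effect was lower after hCG by -1.87 (SE 0.33, limma within each table, adjusted p = 4.3e-06). At such low TPM the log2(TPM + 1) scale understates the maturation change. With a pseudocount of 0.1 TPM the maturation value was -1.04, which did not pass, and the difference was -1.36 (limma adjusted p at most 0.016).

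**Figure D2:**
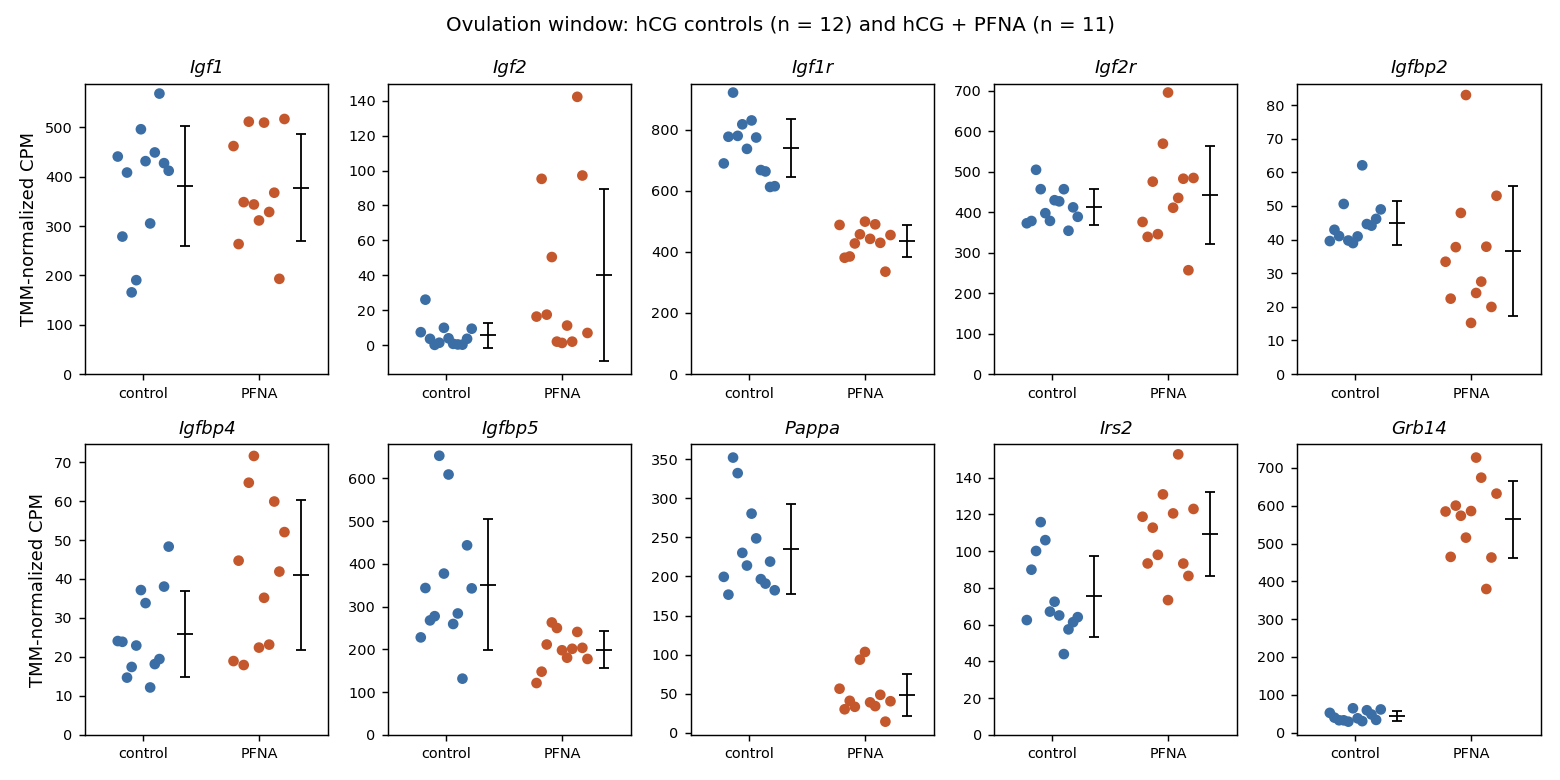
Level of each member (TMM-normalized CPM) in the 12 hCG and 11 hCG+PFNA libraries of the ovulation window, with the mean and SD as a bar beside the points. Grb14 (380 to 727 CPM with PFNA, at most 64.3 CPM in controls), Pappa (at most 103 CPM with PFNA, at least 177 CPM in controls) and Igf1r (at most 499 CPM with PFNA, at least 612 CPM in controls) separate the groups.

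Per length, the level of Igfbp4 relative to that of Pappa, its protease, was higher with PFNA. The ratio of these 2 levels in each maturation library was 3.21, 13.0 and 73.1 in controls (lowest, median and highest) and 9.34, 30.3 and 552 with PFNA. After hCG, with CPM divided by the merged exon length of GENCODE M21, it was 0.104, 0.278 and 0.662 in controls and 0.541, 2.25 and 7.33 with PFNA. The ratio combines values already given and was not tested, and levels were not compared across the tables.

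**Figure D3:**
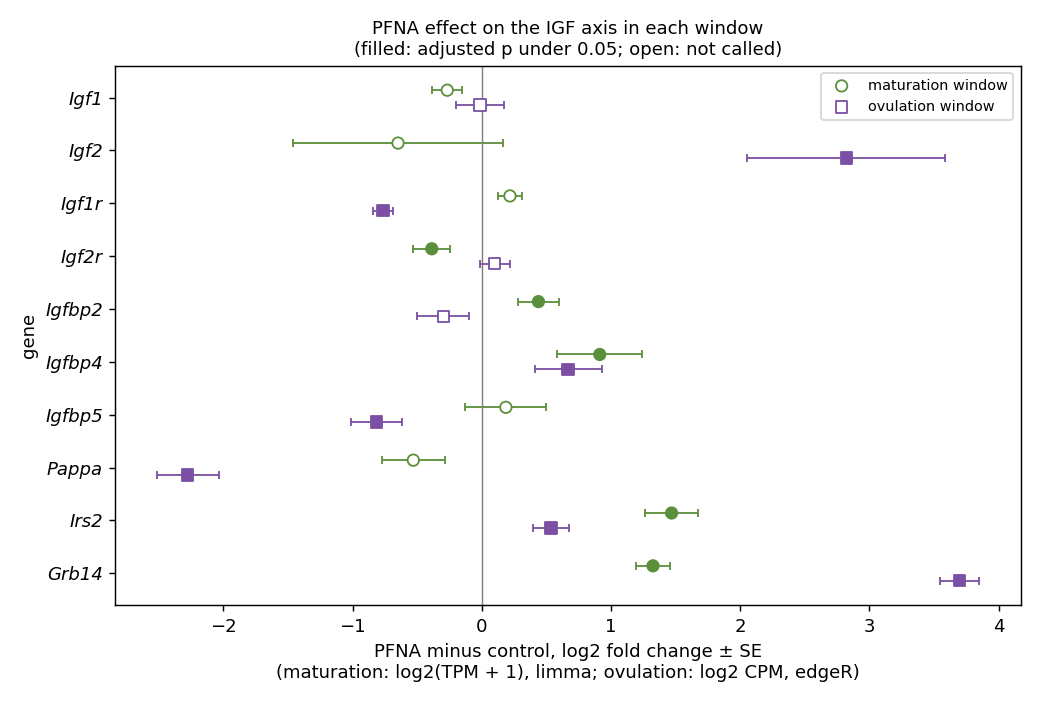
Log2 fold change of each member, PFNA minus control, with its SE, for the maturation window (circles) and the ovulation window (squares), with filled symbols where the adjusted p was under 0.05. Grb14, Irs2 and Igfbp4 lie to the right of 0 in both windows, and Pappa (-2.28) and Igf2 (2.82) have the values farthest from 0 after hCG apart from Grb14 (3.70).

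To compare the windows, the effect on log2(TPM + 1) in maturation was taken from that on log2(CPM + 1) after hCG, gene by gene. Of the 10 members 8 passed, against 67.7% of all genes tested in both, with 3 effects higher after hCG (32.0% of all genes) and 5 lower (35.6%). The effect was higher after hCG for Grb14, Igf2 and Igf2r and lower for Pappa, Igf1r, Irs2, Igfbp5 and Igfbp2. The median difference of the members was -0.59, against -0.04 over all genes. Irs2 thus rose in both windows but less after hCG, and for Igf2, Igf1r, Igf2r, Igfbp2 and Igfbp5 the estimates lay on opposite sides of 0, each with 1 of the 2 windows passing its own test.

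The order of the levels per length also shifted. In maturation controls Igfbp5 ranked highest with a median of 187 TPM, followed by Igf2r (45.0 TPM) and Igf1 (31.5 TPM), with Grb14 at rank 5 and Pappa last. With PFNA Igfbp5 stayed first and Grb14 was second (51.7 TPM). In each maturation group 2 of the 9 pairs of neighbours in this order had ranges that did not overlap, among them Igfbp5 and the gene after it. After hCG controls ranked Igfbp5, Igf1r, Igf2r and Igf1 highest, with Grb14 at rank 8, and with PFNA Grb14 ranked first and Pappa at rank 9. In the ovulation groups each of the 9 pairs of neighbours had overlapping ranges. Both genes of a pair were measured in the same libraries, and their order within each library was not tested.

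The other genes of the pathway, 48 genes in 5 lists, were counted by direction in each window. In the maturation window 40 were tested, of which 13 rose and 1 fell (13.3% and 16.1% of all genes), with a median log2 fold change of 0.18 (0.02 over all genes). In the ovulation window 42 were tested, of which 12 rose and 24 fell (38.0% and 35.2% of all genes), with a median of -0.20 (0.04 over all genes). Within the PI3K-AKT arm, the kinases and regulators downstream of the receptor, 8 of 23 rose and 0 fell in maturation by limma (10 and 0 at an unadjusted p under 0.05), beside the same 13.3% and 16.1% of all genes. After hCG 7 of 24 rose and 15 fell by edgeR, beside 38.0% and 35.2%. Among the genes called in both windows, Foxo1, Ghr, Grb10, Htra1, Pik3cd and Pik3r1 changed in the same direction, and Foxo4, Grb2, Mtor, Rictor and Stc1 rose in maturation and fell after hCG.

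Among genes that act on PAPPA or beside it, Stc1, which encodes stanniocalcin-1, an inhibitor of PAPPA, measured 13.3, 33.0 and 55.4 TPM in maturation controls and 32.6, 71.5 and 166 TPM with PFNA. It was above every control in 7 of 10 PFNA libraries (log2 fold change 1.10, SE 0.29, limma adjusted p = 0.0071). After hCG it was the other way round, with 19.4, 55.2 and 74.6 CPM in controls and 9.62, 17.0 and 35.6 CPM with PFNA (log2 fold change -1.39, SE 0.22, edgeR adjusted p = 3.8e-06). The effects on Stc1 differed by -2.44 (SE 0.36, limma within each table, adjusted p = 2.2e-07), the same sign as for Pappa. Stc2, which encodes another stanniocalcin that inhibits PAPPA, rose after hCG (log2 fold change 0.80, SE 0.24, adjusted p = 0.0040 by edgeR), with a value of 0.04 in maturation (SE 0.17, adjusted p = 0.88 by limma). Pappa2, a related protease, fell after hCG (-1.28, SE 0.42, adjusted p = 0.0086 by edgeR) and was not tested in maturation, and both genes were chosen for mention after their values were seen. Htra1, a secreted serine protease that cleaves IGF-binding proteins, fell in both windows, from 140 ± 19.7 (SD, n = 11) to 61.8 ± 26.9 TPM (SD, n = 10) in maturation and from 1810 ± 241 (SD, n = 12) to 841 ± 110 CPM (SD, n = 11) after hCG. Its log2 fold changes were -1.25 (SE 0.17, adjusted p = 1.7e-05 by limma) and -1.11 (SE 0.08, adjusted p = 1.1e-11 by edgeR).

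Among the signalling genes, Irs1, which encodes another insulin receptor substrate, rose after hCG from 79.4 ± 15.4 (SD, n = 12) to 222 ± 27.2 CPM (SD, n = 11). Every PFNA library was above every control. Its log2 fold change was 1.49 (SE 0.09, adjusted p = 5.0e-13 by edgeR), against 0.50 in maturation (SE 0.20, adjusted p = 0.067 by limma). The maturation value of Irs1 passed when any of control replicates 5 and 10 and PFNA replicates 1 and 2 was left out (0.55, 0.55, 0.57 and 0.57, limma adjusted p up to 0.047). Foxo1, a transcription factor that AKT keeps out of the nucleus, rose after hCG from 164 ± 56.7 to 649 ± 162 CPM (SD, n = 12 and 11), with a log2 change of 1.98 (SE 0.18, adjusted p = 5.0e-10 by edgeR). The PI3-kinase subunits Pik3cd (catalytic) and Pik3r3 (regulatory) rose with log2 fold changes of 1.45 and 1.11. The regulatory subunit Pik3r2 fell from a mean of 59.9 to 29.9 CPM and the adaptor Sh2b2 from 12.3 to 5.90 CPM (edgeR adjusted p at most 3.1e-06 for these 4 genes). The insulin receptor gene Insr fell after hCG like Igf1r, with a log2 fold change of -0.84 (SE 0.09, adjusted p = 6.7e-09 by edgeR), and was chosen for mention after its value was seen.

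**Figure D4:**
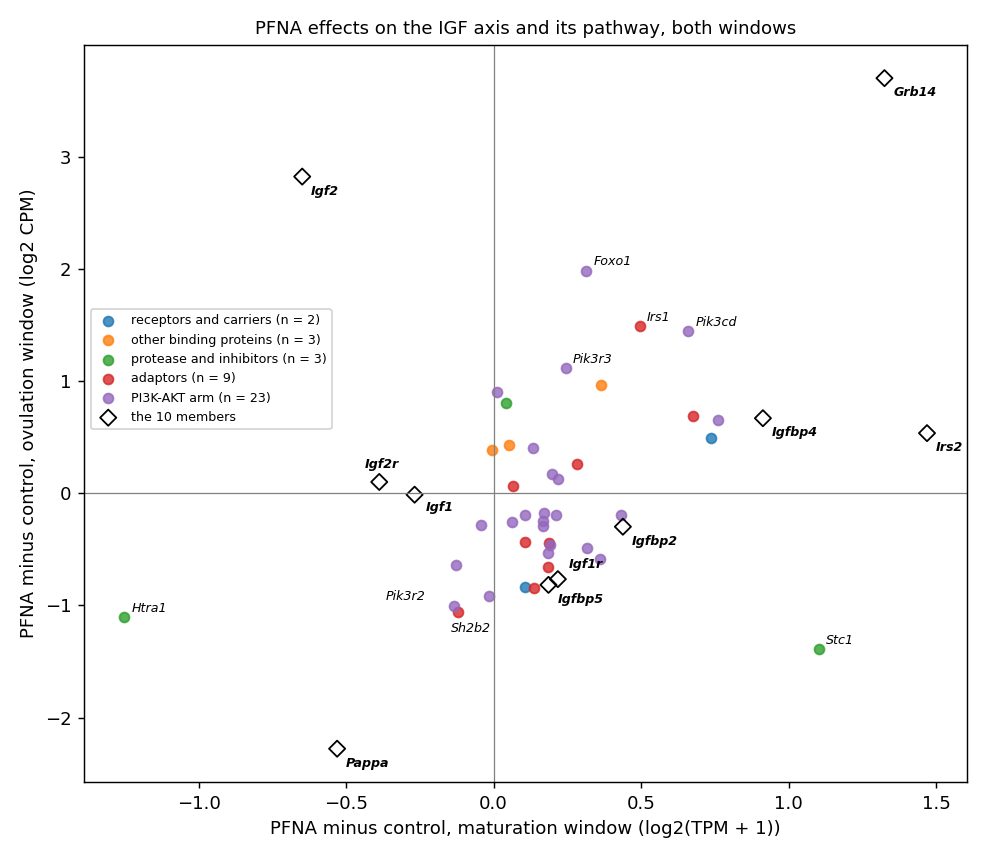
Log2 fold change with PFNA in the maturation window (horizontal, log2(TPM + 1)) against that in the ovulation window (vertical, log2 CPM) for the 10 members (diamonds) and 40 other genes of the pathway tested in both (circles, coloured by list). Grb14 lies at the upper right, Pappa at the bottom, and Stc1 at the lower right with a rise of 1.10 in maturation and a change of -1.39 after hCG.

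Some markers of other cell types also changed with PFNA. Of 12 theca and stroma markers, Ptch1 and Tagln rose and Insl3 fell in maturation by limma, and the summed level was 456 to 1341 TPM in controls and 475 to 2089 TPM with PFNA. After hCG 8 of 12 rose and Pdgfra fell by edgeR. The sums were 242 to 2202 CPM in controls and 1375 to 4019 CPM with PFNA, and none of the 12 was at 0 in any library. Of all genes tested, 13.3% rose and 16.1% fell in maturation, and 38.0% rose and 35.2% fell after hCG. PFNA replicate 10 of the maturation window had the highest theca and stroma sum and the highest Igfbp4 (177 TPM) and Igfbp5 (635 TPM) of all maturation libraries. This library also had the highest oocyte (347 TPM), leukocyte (215 TPM), endothelial (260 TPM) and surface epithelium (57.0 TPM) sums. Its granulosa sum was the lowest (16890 TPM). Control replicate 10, with the highest control theca and stroma sum, had 29.8 TPM of Igfbp4 and 411 TPM of Igfbp5. Control replicates 8 and 12 had the highest endothelial (253 and 257 TPM) and surface epithelium (17.2 and 9.79 TPM) sums and Igfbp4 of the controls. After hCG PFNA replicates 4 and 5 had the highest sums, 3332 and 4019 CPM, and the highest Igfbp4, 64.7 and 71.6 CPM. Their Igf2 was 50.5 and 2.14 CPM. Log2 levels of Igf2, Igfbp4 and Igfbp5 were correlated with the log2 theca and stroma sum, each taken from its group mean. The correlations were 0.72, 0.75 and 0.72 in maturation and 0.21, 0.55 and 0.47 after hCG. The part of theca, stroma or other cell content in the Igf2, Igfbp4 and Igfbp5 results was not tested.

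**Figure D5:**
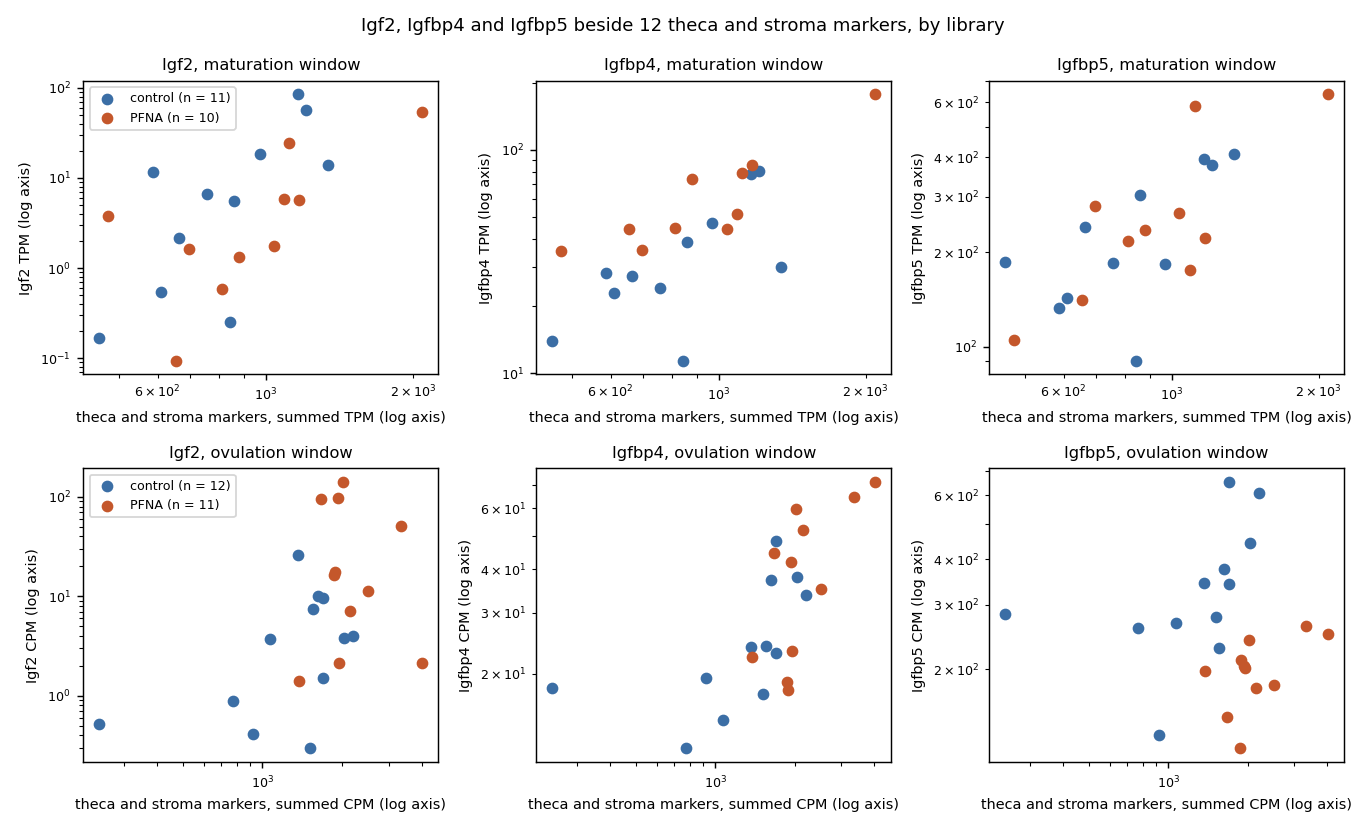
Level of Igf2, Igfbp4 and Igfbp5 (vertical, log axis) against the summed level of 12 theca and stroma markers (horizontal, log axis) in each library, in TPM for the maturation window (top) and CPM for the ovulation window (bottom). Igfbp4 is highest in the libraries with the highest marker sums in both windows (177 TPM at 2089 TPM, and 71.6 CPM at 4019 CPM), and after hCG Igfbp5 reaches 263 CPM with PFNA and 653 CPM in controls.

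Of 8 endothelial markers 0 of the 6 tested passed limma in maturation (0 at an unadjusted p under 0.05) and 6 rose after hCG by edgeR, and of 8 leukocyte markers 2 of 5 tested and 4 of 8 tested rose. Granulosa markers, of the cell type that makes most of the follicle, fell for 5 of 9 genes in maturation by limma. After hCG 6 of 9 rose, among them Fshr and Amhr2, and 2, Inha and Inhba, fell by edgeR. The median granulosa sum was 47847 TPM in controls and 32467 TPM with PFNA in maturation. After hCG it was 19007 CPM in controls and 18784 CPM with PFNA. The shares of all genes were again 13.3% higher and 16.1% lower in maturation, and 38.0% and 35.2% after hCG. Whether the marker changes have a part in the results for the members was not tested.

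Genes whose pattern followed Grb14 or Pappa most closely were sought as the highest Pearson correlations of log2 values, taken from the mean of their own group, which share the library and its scaling. For Grb14 they were Tdrd5, Pik3ip1 and Col11a1 in maturation (correlations of 0.87, 0.85 and 0.83 over 21 libraries, among 8490 genes) and Omd, Slc18b1 and Carmil1 after hCG (0.81, 0.78 and 0.78 over 23 libraries, among 8872 genes). For Pappa they included Adipor2 and Ksr1 in maturation (0.83 and 0.83) and Epb41l3, Ncstn and Chp1 after hCG (0.94, 0.91 and 0.91). No gene named here for a member was named in both windows.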

How the data were processed

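RNA-seq libraries of mouse ovarian follicles were compared within each window (44 libraries in 4 groups). Partek, Bowtie2 and HISAT2 are named in the submitters' processing notes; their roles, the counting method, the use of strand and the genome build are not given in the sources used here. The maturation table was deposited as TPM: every library summed to 1000000 and 80.2% of values were not whole (tolerance 0.01), although it is named as counts, so its depth is unknown and limits its precision to an unknown extent. The ovulation table holds the authors' deposited expected counts (9.82% not whole), which were rounded to whole numbers, with totals of 10.6 to 19.5 (in units of 1e+06 counts) per library. Positions are those of the maturation table, which equal GENCODE M21 on GRCm38 for all 10 members.

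Table columns were matched to sample titles. The column taken as maturation control replicate 6 differs from that title by a letter, and fits without it are among those that leave out 1 library. Maturation control replicate 4 was not analysed here.

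Maturation values were tested with limma 3.58.1 (R 4.3.3, trend and robust) on log2(TPM + 1) keeping genes whose mean reached 1 TPM, a scale that understates the change of low genes. Ovulation counts were tested with edgeR 4.0.16 (quasi-likelihood, filterByExpr, TMM). The difference between windows was the limma effect on log2(CPM + 1) minus that on log2(TPM + 1), with Satterthwaite degrees of freedom. All tests ran over all genes, two-sided, with Benjamini-Hochberg adjustment and a threshold of 0.05. They were also run on simulated data in which far fewer genes changed than were called here. That run cannot show the error rates in these data. The edgeR standard error is the log2 fold change over the square root of the F statistic.

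All 10 members are named whatever their result. Of the other pathway genes up to 5 higher and 5 lower per window are named, those called with a log2 fold change of 1 or more in size and a mean of at least 5 TPM or 10 CPM in a group, by smallest p. The members and lists were chosen with earlier results of these data known. Same-numbered libraries of a window did not deviate together, so the numbers were not used as pairs. Alternatives were the pseudocount, filters, scaling, limma or DESeq2 1.42.0 on the ovulation counts, the replicate block, and leaving out libraries. Some genes that met these rules are not reported here.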

Additional observations from a re-analysis of the deposited data

Results flagged for a closer look

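In the maturation PFNA group 3 of the 10 members had a library far from the other 9. The rule set the gap to the next library against the range, in TPM. Its cut-off flags about 1 group in 20, or 0.5 over 10, only where values are normally distributed. TPM values can be skewed, and the log2 scale was not searched, so the 3 cannot be set against that number. PFNA replicate 10 had 53.5 TPM of Igf2, with 24.5 TPM in the next library, and 177 TPM of Igfbp4, with 85.2 TPM in the next. PFNA replicate 8 had 4.73 TPM of Pappa, with 2.42 TPM in the next. Groups of more than 10 libraries were not searched.

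The PFNA effect differed between the windows for 8 members by the test of the difference itself (limma within each table, ovulation minus maturation). Of all genes tested in both windows 67.7% differed too, with 32.0% higher after hCG and 35.6% lower, beside 3 and 5 members. The differences were 2.38 for Grb14, 2.69 for Igf2, 0.45 for Igf2r, -0.98 for Igf1r, -0.87 for Igfbp2, -0.91 for Igfbp5, -0.91 for Irs2 and -1.87 for Pappa on the log2 scale.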

How the results depend on the processing

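Grb14 and Irs2 in both windows, and Pappa, Igf1r, Igfbp5 and Igf2 after hCG, kept their direction and their call under every alternative run. Without a filter on low TPM, 2 members were called higher and 0 lower in maturation (limma, with 5 higher and 3 lower at an unadjusted p under 0.05). That fit called 1832 higher and 2495 lower of all 22672 genes, against 1824 and 2206 of 13712 in the main fit. With median-ratio scaling of TPM 5 members were called higher and 2 lower, Igf1r and Igf1 being added. Of all 13656 genes, 1962 were then called higher and 2505 lower. Without maturation PFNA replicates 1 and 2 together, the difference between windows was higher for 1 member, beside 3594 of all 11226 genes. Leaving out each library in turn, members called higher and lower numbered 2 to 4 and 0 to 1 in maturation, 3 to 4 and 3 to 4 after hCG, and 2 to 3 and 4 to 5 for the difference. Over all genes the calls in these fits numbered 3586 to 4588, 9654 to 10029 and 7482 to 7686. The value of Igf1 after hCG, which was not called, changed sign to 0.014 with median-ratio size factors and with DESeq2, to 0.013 with limma on log2(CPM + 1), to 0.083 with a mean of at least 10 CPM and to 0.029 with the replicate block, and ranged from -0.087 to 0.055 when libraries were left out. The difference for Igf2 did not pass with a pseudocount of 0.1 TPM (2.74, limma adjusted p = 0.059). With that pseudocount the difference for Pappa shrank from -1.87 to -1.36 and still passed. The cause of these changes was not tested.

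Numbers shared by libraries did not pair them: correlations of deviations were -0.138 to 0.168 over 9 maturation pairs, where 1 pair correlated best with its own number, and -0.193 to 0.0730 over 11 ovulation pairs, where 0 did. With the replicate block 2895 genes were called in maturation, 9333 after hCG and 7287 for the difference, against 4030, 9837 and 7588. In maturation Igfbp2, Foxo1 and Pik3cd did not pass with the block (0.43, 0.24 and 0.59, limma adjusted p 0.079, 0.11 and 0.057). After hCG Igf2 had the lowest count of any member, 3 in a library, but reached 2217 in another. The part of depth in its spread was not tested, and depth is unknown for the maturation window.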
